A study of Mus musculus with 17 samples.

Results

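Hba-a1, Hba-a2, Hbb-bs and Hbb-bt, the 4 adult globin genes of the mouse, were measured together with Alas2, Slc4a1 and Epb42 as mRNA of the red blood cell lineage in lung tissue after focal irradiation. They were taken by gene symbol from the table of read counts, which has 45777 genes. Of 8 listed genes, 7 were found there and are described below, and 1 listed gene is not analysed here. The genes were chosen from their measured levels and changes in these same libraries, so their levels and fold changes are a description and carry no p-value.

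The 17 RNA libraries came from lungs of male wild-type C57BL/6 mice that were 6 weeks old on arrival, before a period of housing and the irradiation. Irradiated mice received 1 focal dose of 65 Gy or 75 Gy to the left lung, control mice received none, and tissue was taken 2 or 6 weeks later. The study's methods state that the RNA of irradiated tissue came from its lesions. Control lungs have no such lesion, so the place sampled and the irradiation cannot be told apart. There were 3 libraries in each of 5 groups and 2 libraries in the 65 Gy group at 6 weeks. The paper lists 3 replicates for that last group, and not all of them are among the libraries used here. Each library is named here by the number in its label, so that 3126 to 3128 are the controls at 2 weeks, 3129 to 3131 the 65 Gy and 3132 to 3134 the 75 Gy libraries at 2 weeks, 3135 to 3137 the controls at 6 weeks, 3138 and 3140 the 65 Gy and 3141 to 3143 the 75 Gy libraries at 6 weeks. Whether the lungs were flushed of blood, and whether a library is 1 animal, is not given in the sources used here, so the spread between libraries may be in part technical. The alveolar type 2 cell list summed to between 18937 and 34634 CPM, the unit defined below, in every library, as lung tissue would give. In bulk tissue, fewer cells of a type and less RNA per cell cannot be told apart.

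Hemoglobin is a tetramer of 2 alpha-like and 2 beta-like globin chains, each holding a heme group. Alas2, the erythroid 5-aminolevulinate synthase, carries out the rate-limiting step of heme synthesis in red cell precursors. Slc4a1 (band 3) is the anion exchanger of the red cell membrane and its anchor to the membrane skeleton, and Epb42 (protein 4.2) binds band 3 on the inner face of that membrane. Mature mammalian red cells have no nucleus and transcribe nothing, but reticulocytes, the young red cells in blood, still carry globin and Alas2 mRNA. In an organ as rich in blood as the lung, such mRNA is read beside that of the tissue itself.

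On the GRCm38.p6 build the alpha genes lie on chromosome 11, Hba-a1 at 32283672 to 32284486 and Hba-a2 at 32296492 to 32297310, both on the plus strand. The beta genes lie on the minus strand of chromosome 7, Hbb-bs at 103826523 to 103827928 and Hbb-bt at 103812524 to 103813923. Alas2 lies on the plus strand of chromosome X at 150547417 to 150570622, Slc4a1 on the minus strand of chromosome 11 at 102348820 to 102365281, and Epb42 on the minus strand of chromosome 2 at 121017891 to 121036877. Each position is the whole annotated gene, and the counts are summed over its exons.

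Stretches of the 250 bases before the annotated start are shown for 4 of the genes, because their mRNAs moved together across the libraries, as given below, and because the globin promoters are textbook examples of erythroid promoters. The sequences are RefSeq reference sequence of GRCm38.p6, written 5′ to 3′ on the strand of the gene, and the capitals mark letters of 4 motifs. These were the GATA motif searched as AGATAA, also as TGATAA, also as AGATAG and also as TGATAG, the CACCC motif searched as CCACCC and also as ACACCC, and CCAAT, each on both strands, and TATAA on the strand of the gene. No capital letters overlap between motifs.
Hba-a2 (chr11:32296242-32296488, plus strand): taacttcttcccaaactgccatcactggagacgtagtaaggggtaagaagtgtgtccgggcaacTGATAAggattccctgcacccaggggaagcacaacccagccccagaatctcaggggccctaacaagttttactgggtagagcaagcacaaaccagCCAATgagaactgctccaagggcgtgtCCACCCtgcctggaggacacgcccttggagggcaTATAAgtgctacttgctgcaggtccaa
Hbb-bs (chr7:103828097-103828178, minus strand): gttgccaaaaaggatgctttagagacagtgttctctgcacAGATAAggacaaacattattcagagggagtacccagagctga
Hbb-bt (chr7:103813997-103814173, minus strand): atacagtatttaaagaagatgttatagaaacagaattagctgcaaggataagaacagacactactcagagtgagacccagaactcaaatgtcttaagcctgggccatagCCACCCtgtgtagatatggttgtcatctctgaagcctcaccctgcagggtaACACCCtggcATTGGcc
Alas2 (chrX:150547167-150547374, plus strand): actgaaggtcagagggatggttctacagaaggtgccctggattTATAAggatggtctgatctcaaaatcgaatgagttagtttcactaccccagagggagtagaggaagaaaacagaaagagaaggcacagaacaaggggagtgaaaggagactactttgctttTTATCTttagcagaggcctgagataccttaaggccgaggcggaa

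The Hba-a2 stretch holds all 4 motifs, with the GATA letters 186, the CCAAT letters 91, the CACCC letters 64 and the TATAA letters 30 bases before the start. The Hba-a1 window is the same over all 247 bases that could be compared, with the copies shifted by 3 bases against each other. The last 120 bases of the Hbb-bs and Hbb-bt windows were less alike, with 88 of 119 aligned bases equal. Hbb-bs holds a GATA motif 210 bases before its start, whereas none of the 4 GATA spellings was found in the window of Hbb-bt. Alas2 has a GATA motif on the opposite strand, 86 bases before its start, and that of Epb42 lies 226 bases before its start. Outside its stretch, Alas2 also holds CACCC letters on the opposite strand, 40, 35 and 30 bases before its start. Such short letters are common, since 26.5% of the 32851 promoter windows hold a GATA, 37.6% a CACCC, 33.9% a CCAAT and 16.0% a TATAA motif. No window was at hand for Slc4a1.

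Levels are given as CPM, the reads of a gene in every 1000000 reads assigned to genes, with library sizes scaled by the trimmed mean of M-values. Between 46764569 and 66797879 reads were assigned to genes per library, and the 4 globin genes together took 0.146% to 0.653% of them, with a median of 0.302%. Hbb-bs was the most abundant of the 7 genes in every library and ranked between 20 and 163 among all genes. Alas2 ranked between 1835 and 8906, Slc4a1 between 7953 and 17771 and Epb42 between 14283 and 18234. Per kilobase of transcript, the mean over the 17 libraries was 1879 CPM for Hbb-bs, 1224 for Hba-a2, 1176 for Hba-a1, 745 for Hbb-bt, 29.5 for Alas2, 1.17 for Slc4a1 and 0.278 CPM for Epb42. The order therefore ran from the globins through the heme enzyme to the membrane proteins.

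The split of reads within the alpha pair and within the beta pair is uncertain. Of the 100-base stretches of the transcript, 56.5% in Hba-a1 and 74.5% in Hba-a2 occur in the other copy, as do 62.6% in Hbb-bs and 54.8% in Hbb-bt. A read from such a stretch could have been given to either copy, so sums over the pairs are also given. Alas2 shares 311 of its 2403 exon bases with Apex2 on the opposite strand, and the strand setting of the counting is not given in the sources used here. Apex2 had 271 to 457 reads per library against 1028 to 6409 for Alas2, and its log2 fold change at 75 Gy and 6 weeks was -0.04 ± 0.10 (SE).

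**Figure D1:**
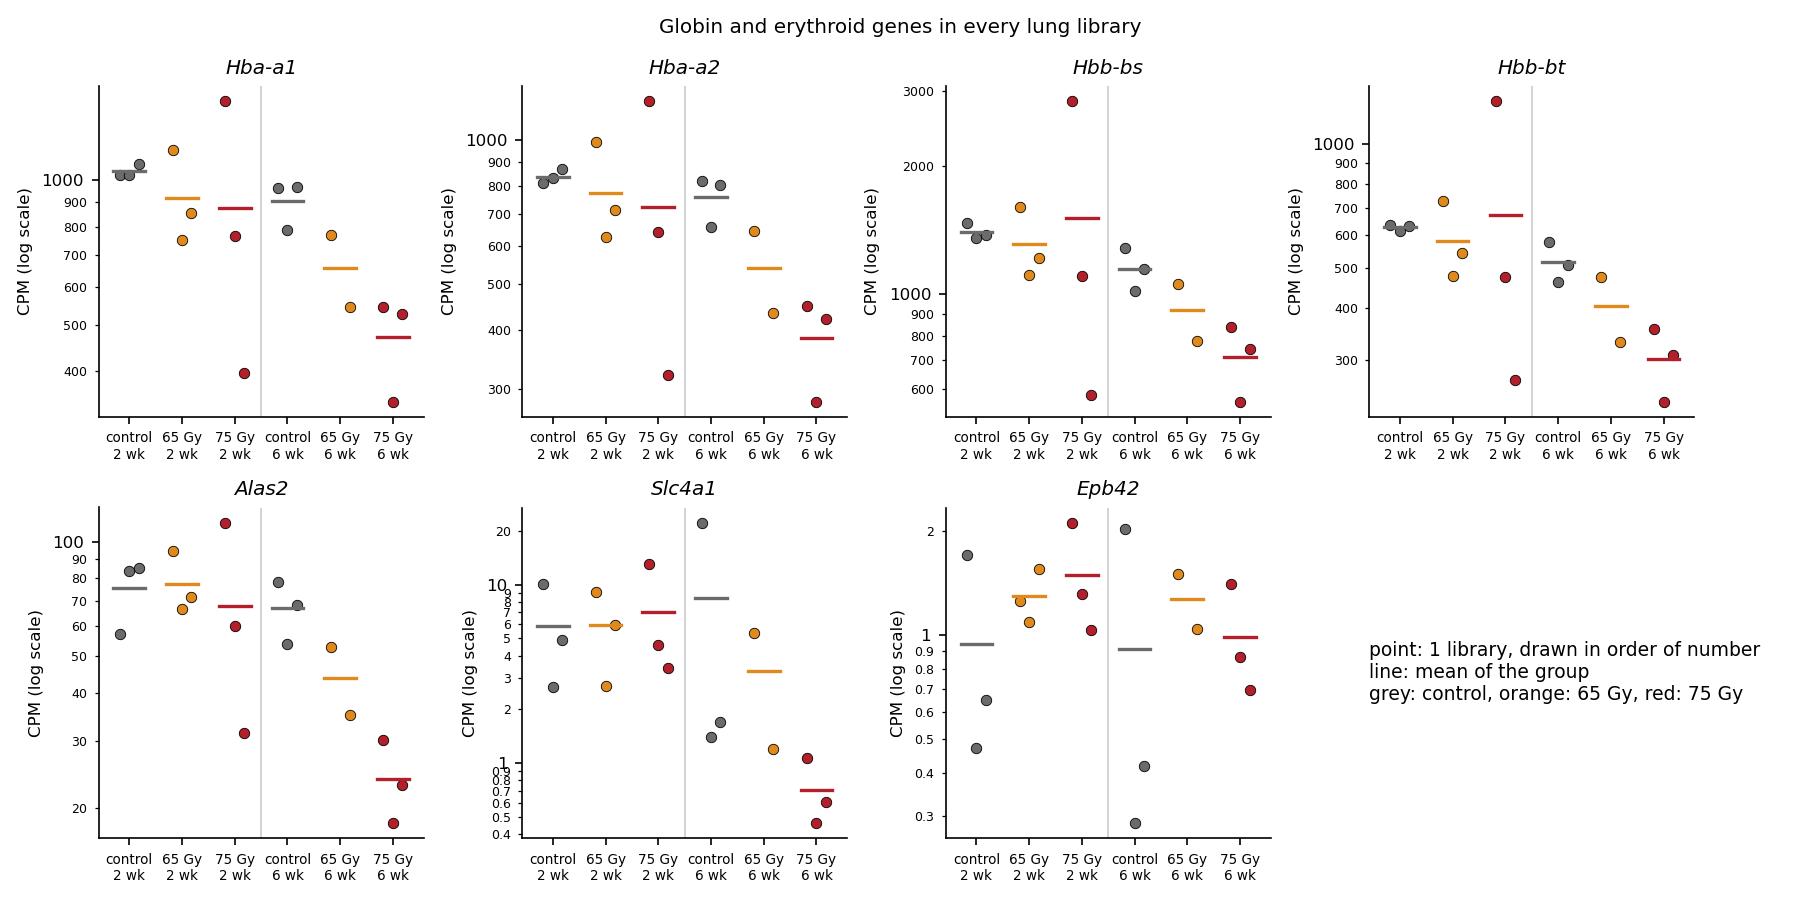
Level of each of the 7 genes in each library, in CPM on a log axis, with 1 point per library and a line at the group mean. At 6 weeks the 75 Gy libraries lie below all controls for every gene except Epb42, and at 2 weeks the 75 Gy libraries spread widely around the controls.

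At 6 weeks after 75 Gy, the globin mRNAs were at 56.1% of the control level in sum, and Alas2 was lower still. The 4 globin genes summed to 3333 ± 371 CPM in the controls (SD, n = 3) and to 1869 ± 397 CPM after 75 Gy (SD, n = 3). Hba-a1, an alpha-globin gene, was read at 964, 786 and 970 CPM in control libraries 3135, 3136 and 3137 and at 543, 345 and 527 CPM in libraries 3141, 3142 and 3143. Every irradiated library was below every control library, and 3142 was the lowest. The fitted log2 fold change of Hba-a1 was -0.94 ± 0.33 (SE).

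Hba-a2, the other alpha copy, was read at 820, 657 and 805 CPM in the controls and at 448, 282 and 420 CPM after 75 Gy, with a log2 fold change of -0.99 ± 0.34 (SE). Its groups did not overlap, and 3142 was again the lowest library. Hbb-bs, the more abundant beta-globin gene, was read at 1283, 1018 and 1145 CPM in the controls and at 837, 559 and 743 CPM after 75 Gy. The groups were apart here too, by a narrower gap between 837 and 1018 CPM. For Hbb-bs the fitted log2 fold change was -0.69 ± 0.38 (SE). Hbb-bt, the minor beta-globin gene, followed the same order of libraries, with 463 to 578 CPM in the controls, 237 to 356 CPM after 75 Gy and a log2 fold change of -0.78 ± 0.38 (SE).

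Alas2, the heme synthesis enzyme, was read at 78.4, 53.8 and 68.1 CPM in controls 3135 to 3137 and at 30.2, 18.2 and 23.0 CPM in libraries 3141 to 3143. All 3 irradiated libraries were far below the lowest control, and the log2 fold change was -1.49 ± 0.35 (SE). Slc4a1, the anion exchanger, was read at 22.2, 1.39 and 1.69 CPM in the controls and at 1.07, 0.460 and 0.603 CPM after 75 Gy. The groups did not overlap, but control library 3135 was more than 10 times above the other controls, and most of the fitted change came with it. The log2 fold change of Slc4a1 was -3.56 ± 1.04 (SE) with library 3135 and -1.11 without it.

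Epb42, the band 3 binding protein, did not follow the others. It was read at 2.03, 0.285 and 0.419 CPM in the controls and at 1.41, 0.867 and 0.694 CPM after 75 Gy, so that the irradiated libraries lay between the highest control, again 3135, and the other controls. The log2 fold change was 0.12 ± 0.61 (SE) with library 3135 and 1.49 without it. The counts behind these values were low, from 16 to 125 reads per library for Epb42 and from 26 to 1371 for Slc4a1.

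A gene was called changed when edgeR's quasi-likelihood test gave a p of 0.05 or less after Benjamini-Hochberg adjustment over all 22052 genes tested, with a log2 fold change of at least 1 in size. At 75 Gy and 6 weeks, 2 of the 7 genes were called lower, Alas2 and Slc4a1, where 3.13% of all genes were called lower and 10.4% in either direction. In 6 of the 7 genes every irradiated library was below every control, where 27.7% of all genes were. Since the genes were listed for this difference, nothing is read from these counts. The median log2 fold change was -0.94 over the 7 genes and 0.04 over all genes. Slc4a1 was no longer called without library 3135, 3142 or 3143.

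**Figure D2:**
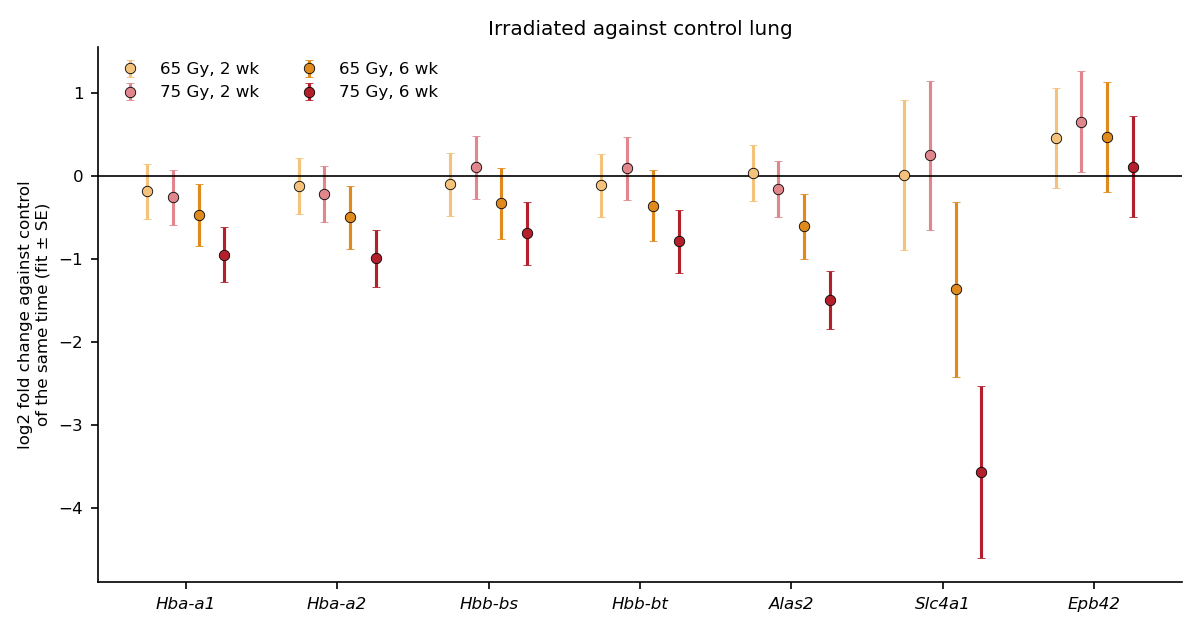
Log2 fold change of each gene against the control libraries of the same time, with points for the edgeR fit and bars for its standard error. The 4 globin genes and Alas2 lie near 0 at 2 weeks and below 0 at 6 weeks, furthest at 75 Gy, while the bars of Slc4a1 and Epb42 are wide.

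At 6 weeks after 65 Gy the values lay between the controls and 75 Gy for the globins and Alas2, from 2 libraries that differed from each other. Both doses were set against the same control libraries. Hba-a1 was read at 769 CPM in library 3138 and at 545 CPM in 3140, both below the lowest control, with a log2 fold change of -0.47 ± 0.37 (SE). Hbb-bs was read at 1059 and 777 CPM, and the higher of these lay within the range of the controls. For Alas2 the values were 52.8 and 35.1 CPM, just under the lowest control of 53.8 CPM, which gave a log2 fold change of -0.60. No gene of the 7 was called, where 5.28% of all genes were, and in 3 of 7 (Hba-a1, Hba-a2 and Alas2) both libraries were below all controls, where 28.1% of all genes were.

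Slc4a1 was read at 5.38 and 1.19 CPM at 65 Gy and 6 weeks, and Epb42 at 1.50 and 1.04 CPM. Both genes were higher in 3138 than in 3140, and library 3135 decided their comparison with the controls. The log2 fold change of Slc4a1 was -1.36 with library 3135 and 1.09 without it, and that of Epb42 was 0.47 with it and 1.84 without it. The 4 globin genes summed to 2518 ± 610 CPM (SD, n = 2), 75.6% of the control mean, and the groups overlapped.

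At 2 weeks none of the 7 genes was called at either dose, where 7.74% of all genes were called at 75 Gy and 4.35% at 65 Gy. The 3 control libraries were close together for the globins, with Hba-a1 at 1026, 1025 and 1082 CPM and a sum of the 4 globin genes of 3910 ± 72.9 CPM (SD, n = 3). The 75 Gy libraries at the same time stood on both sides of them. Hba-a1 was read at 1463 CPM in library 3132, at 767 CPM in 3133 and at 397 CPM in 3134, and Hbb-bs at 2837, 1101 and 580 CPM. Library 3132 was the highest and 3134 among the lowest of all 17 libraries, and the sum of the globins, 3778 ± 2695 CPM (SD, n = 3), therefore had a mean close to that of the controls with a much larger spread. Its log2 ratio to the controls was -0.05 with library 3132 and -0.79 without it.

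The other genes shared this order within the 75 Gy group at 2 weeks. Alas2 was read at 112, 59.8 and 31.4 CPM in libraries 3132, 3133 and 3134, Slc4a1 at 13.0, 4.57 and 3.41 CPM, and Epb42 at 2.12, 1.32 and 1.04 CPM. In each case 3132 was the highest and 3134 the lowest. Fitted log2 fold changes at 75 Gy and 2 weeks ran from -0.25 for Hba-a1 to 0.66 for Epb42. At 65 Gy the libraries 3129, 3130 and 3131 had Hba-a1 at 1159, 750 and 853 CPM and Alas2 at 94.4, 66.3 and 71.7 CPM, with 3129 the highest in both. Their log2 fold changes were -0.18 ± 0.33 and 0.04 ± 0.34 (SE).

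The direct comparison of the doses gave no called gene at either time, among the 7 or among all genes, by edgeR's test. Over all genes, 1570 at 2 weeks and 1431 at 6 weeks had an unadjusted p under 0.05, which is 7.12% and 6.49% of those tested. At 6 weeks Alas2 was lower in every 75 Gy library than in both 65 Gy libraries, by a log2 fold change of -0.88, as were Hba-a1 by -0.48 and Slc4a1 by -2.20. Of the 2 libraries at 65 Gy, 3138 set the size of these differences, and without it they were -0.57 for Alas2, -0.22 for Hba-a1 and -0.75 for Slc4a1. Such a separation was found in 3 of the 7 genes, where 15.3% of all genes were lower in this way. For Hba-a1 the gap was narrow, between 543.2 CPM at 75 Gy and 544.8 CPM at 65 Gy.

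The controls themselves differed a little between the times. Hba-a1, Hbb-bs and Hbb-bt were lower in every control library at 6 weeks than at 2 weeks, with log2 fold changes of -0.20, -0.28 and -0.28, where 11.2% of all genes were separated in this way. None of the 7 genes was called, where 0.576% of all genes were. The log2 fold change of 75 Gy at 6 weeks less that at 2 weeks was -0.69 for Hba-a1, -0.79 for Hbb-bs, -1.34 for Alas2, -3.82 for Slc4a1 and -0.54 for Epb42. These values rested on single libraries. Without library 3132 they were -0.08 for Hba-a1, 0.07 for Hbb-bs and -0.75 for Alas2, and without library 3135 they were -1.36 for Slc4a1 and 0.83 for Epb42. None of these differences was called, where 0.254% of all genes were.

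In order of group means, Alas2 stood at 77.5 CPM in the 65 Gy group at 2 weeks, 75.4 in the controls at 2 weeks, 67.8 in the 75 Gy group at 2 weeks, 66.7 in the controls at 6 weeks, 43.9 in the 65 Gy group at 6 weeks and 23.8 CPM in the 75 Gy group at 6 weeks. The upper 4 groups overlapped with their neighbours, and the lower 2 did not overlap with the group above. Hba-a1 ran from 1045 CPM in the controls at 2 weeks to 472 CPM in the 75 Gy group at 6 weeks, and only its last step, from 657 CPM in the 65 Gy group at 6 weeks, was free of overlap. That gap was narrow, with the lowest 65 Gy library at 544.8 CPM and the highest 75 Gy library at 543.2 CPM.

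Ratios between the genes compare reads of the same library. The beta to alpha ratio, the sum of Hbb-bs and Hbb-bt over that of Hba-a1 and Hba-a2, was between 0.931 and 1.27 in 16 libraries and 1.54 in library 3132. At 6 weeks it was 1.0 ± 0.06 in the controls (SD, n = 3) and 1.19 ± 0.08 after 75 Gy (SD, n = 3), and every irradiated library was above every control. It was 1.11 on average in both 65 Gy libraries together, which also lay above the controls. Alpha-globin mRNA was therefore further below the controls than beta-globin mRNA.

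Within the pairs the ratios were steady. Hba-a1 over Hba-a2 was between 1.17 and 1.26 in all libraries, and Hbb-bs over Hbb-bt between 2.17 and 2.42. The latter was 2.35 to 2.42 after 75 Gy at 6 weeks and 2.20 to 2.25 in the controls of that time. With the shared stretches given above, these ratios hold for the reads as assigned.

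Alas2 was lower against the globins, too. Per 1000 CPM of globin it stood at 19.9 ± 1.55 CPM in the controls at 6 weeks (SD, n = 3) and at 12.7 ± 1.16 CPM after 75 Gy (SD, n = 3), 63.7% of the control ratio, with no overlap. At 65 Gy it was 17.9 and 16.8 CPM, also below all 3 controls. At 2 weeks control library 3126 stood apart with 14.5 CPM, while its fellow controls had 21.9 and 21.5 CPM and the 75 Gy libraries 16.6 to 20.1 CPM. Slc4a1 per 1000 CPM of globin was 6.10 CPM in library 3135 and 2.56 CPM in 3126, but 0.476 and 0.494 CPM in the other controls at 6 weeks, and from 0.301 to 0.488 CPM after 75 Gy, so that without 3135 the groups overlapped.

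**Figure D3:**
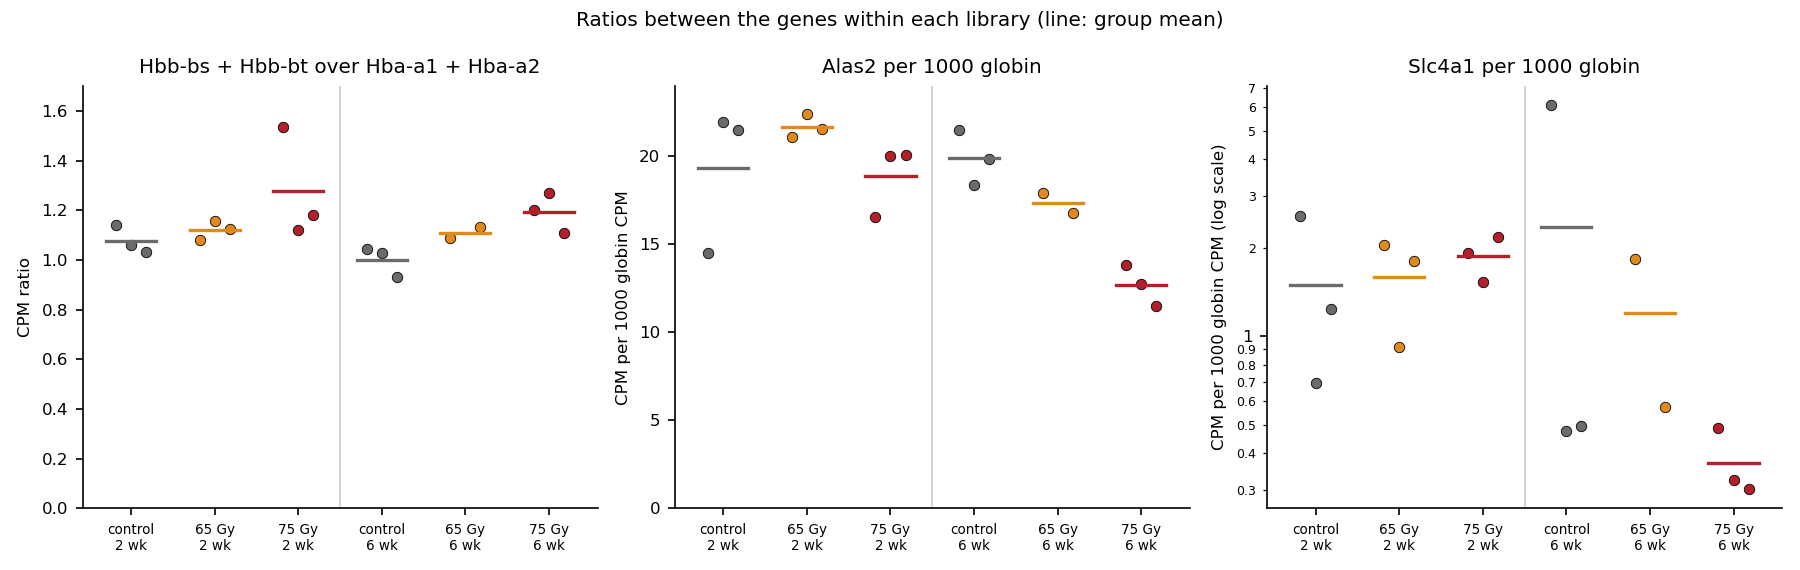
Ratios between the genes within each library, with 1 point per library and a line at the group mean; the right panel has a log axis. The beta to alpha ratio is highest in library 3132, Alas2 per globin is lower than in all controls at 75 Gy and 6 weeks, and Slc4a1 per globin is highest in control library 3135.

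Across the 17 libraries the globins moved together, as a description over libraries that share groups. On log2 CPM, Pearson's r was 0.999 within the alpha pair, 0.997 within the beta pair and between 0.96 and 0.97 across the pairs. Alas2 followed the globins with r between 0.90 and 0.95. Slc4a1 had r between 0.73 and 0.76 with the globins, and between 0.54 and 0.58 once group means were removed, whereas Epb42 had r between 0.13 and 0.29. Slc4a1 and Epb42 were closest to each other within groups, with r = 0.91 after group means were removed and 0.60 before. The 7 genes thus formed a tight set of globins and Alas2 and a looser one of the membrane genes, the latter with the fewest reads.

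Among all other genes tested, Bpgm, which encodes the enzyme that makes bisphosphoglycerate in red cells, was among the genes with patterns most like the mean of the globins, with r = 0.940 (Spearman's rho 0.971) over 17 libraries. Its r was 0.940 within groups and 0.950 without libraries 3132 and 3142, which lie furthest from the median. Pcdh18, Dok4 and Hrct1 followed with r of 0.892, 0.885 and 0.877. Bpgm was read at 48.3 to 56.8 CPM in the controls at 6 weeks and at 44.3 to 48.2 CPM after 75 Gy, just without overlap, and at 79.8 CPM in library 3132.

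The mean of Alas2, Slc4a1 and Epb42 was most like Trim10, an erythroid ubiquitin ligase, with r = 0.904, or 0.849 within groups. Apol11b, with r = 0.862, and Kel, the Kell blood group protein, with r = 0.856, were also among the genes most like it. Apol11b was read at 0.660 to 1.44 CPM in the controls at 6 weeks and at 0.201 to 0.492 CPM after 75 Gy, a description of a gene picked for its likeness.

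**Figure D4:**
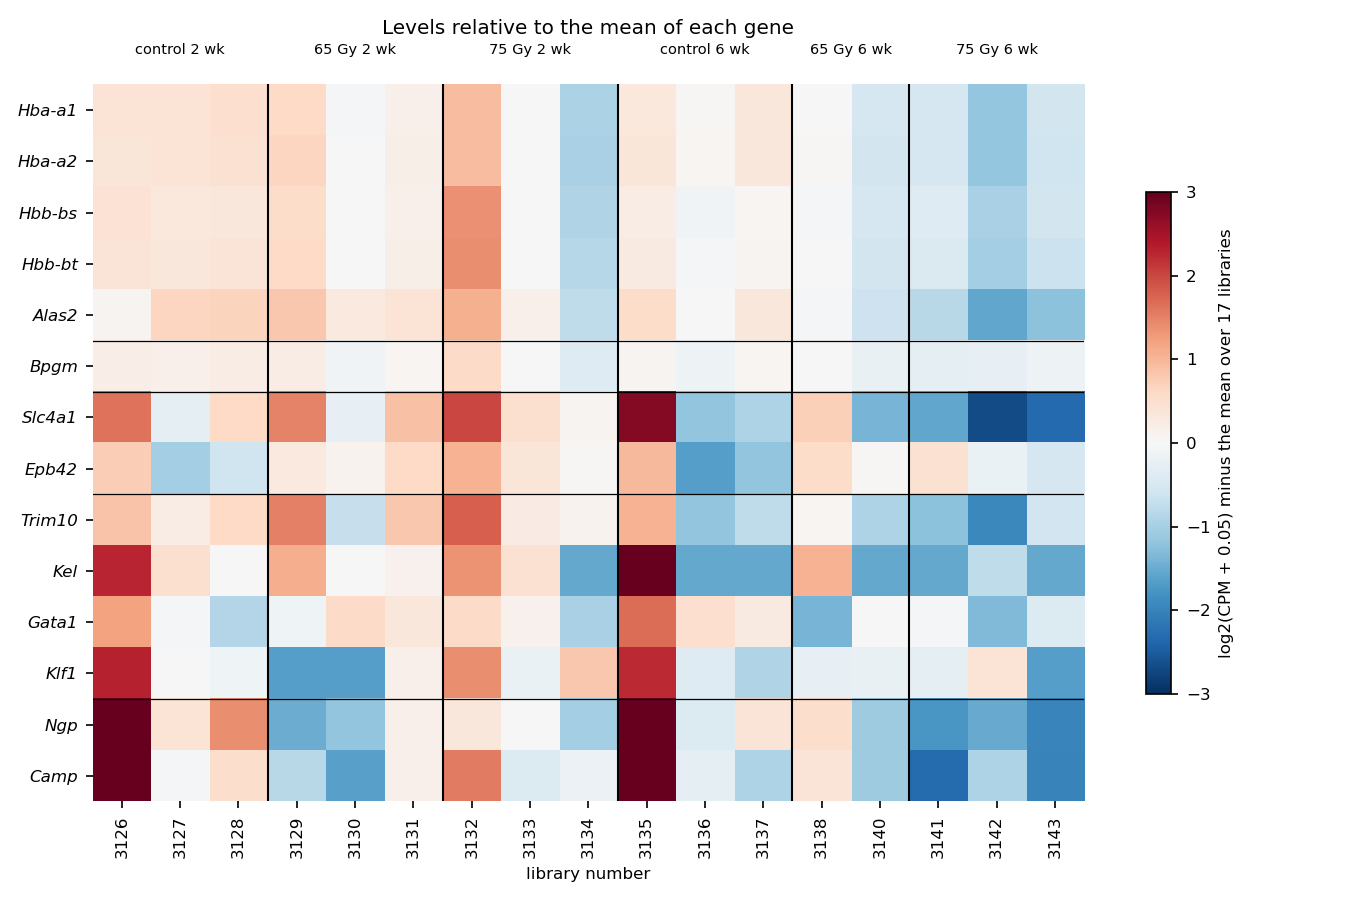
Level of the 7 genes, of Bpgm, Trim10 and Kel, whose patterns were among the most like theirs, and of the erythroid factors Gata1 and Klf1 and the neutrophil genes Ngp and Camp in each library, as log2(CPM + 0.05) less the mean of the gene over the 17 libraries. Libraries 3132 and 3134 are at opposite ends for the globins within the 75 Gy group at 2 weeks, and library 3135 is far above the mean for Slc4a1, Kel and Ngp and a little above it for the globins.

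To place these genes in their pathway, 5 lists of other globin and erythroid genes were used. They held 66 genes in all, of which 65 had counts and 62 were tested. Not all are particular to red cells, since the globins Mb, Cygb and Ngb are among them. At 75 Gy and 6 weeks 3 were called lower, where 3.13% of all genes were, and 2 higher, where 7.28% were. At 65 Gy and 6 weeks 1 was called lower (0.943% of all genes) and 2 higher (4.34%), and at 2 weeks 1 was lower at 75 Gy (2.07%) and 1 at 65 Gy (0.88%). The median log2 fold change over the 62 genes at 75 Gy and 6 weeks was -0.57. The comparison of the doses gave 0 calls at either time by edgeR, DESeq2 and the exact test, with an unadjusted p under 0.05 in 2 genes at 2 weeks and 5 at 6 weeks.

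Of the 17 red cell membrane genes other than Slc4a1 and Epb42, 0 were called at 75 Gy and 6 weeks by edgeR. In this list 8 were at an unadjusted p under 0.05, where 45.6% of all genes were, and the median log2 fold change was -0.92. Epb41 (protein 4.1) had the smallest p in the list, with a log2 fold change of -0.95 (edgeR adjusted p = 1.87e-05) short of the size required. At 75 Gy and 2 weeks Tmod1, which caps actin filaments, was at -0.91 (adjusted p = 0.00321). Slc14a1, a urea transporter that carries the Kidd blood group, was the 1 gene called between the controls, higher at 6 weeks by 1.26 (adjusted p = 0.0388), where 0.24% of all genes were called higher, and was no longer called when any 1 of the 6 libraries was left out.

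Of the 15 other genes of heme synthesis, the pathway that Alas2 opens, 0 were called at 75 Gy and 6 weeks by edgeR. An unadjusted p under 0.05 was found in 9 of them and in 45.6% of all genes. The median log2 fold change was -0.07. Tmem14c, a mitochondrial porphyrin carrier, was at 0.72 (edgeR adjusted p = 0.000245). Alas2 itself, the erythroid member of the pathway, was at -1.49.

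Of the 11 erythroid regulators, 3 were called lower at 75 Gy and 6 weeks, where 3.13% of all genes were. These were Kit, Tal1 and Bcl11a, with log2 fold changes of -1.54, -1.07 and -1.11 (edgeR adjusted p = 6.96e-05, 0.000386 and 0.00187). Kit, the stem cell factor receptor, which mast cells also carry, fell at both doses and both times, by 1.37 at 75 Gy and 2 weeks (adjusted p = 0.00029), by 1.30 at 65 Gy and 2 weeks (adjusted p = 0.000754) and by 1.0 at 65 Gy and 6 weeks (adjusted p = 0.009). Gata1, the main erythroid GATA factor, was at -1.60 (adjusted p = 0.0616), and Klf1, the factor that binds CACCC letters in erythroid promoters, at -1.72 (adjusted p = 0.307), with 0 to 43 reads per library. Tal1 and Bcl11a are also expressed outside the red cell lineage, in endothelium and B cells. Kit was called lower at 2 weeks, when none of the 7 genes was called. Of 12 endothelial genes, 5 were called lower then at 75 Gy and 4 at 65 Gy, where 2.07% and 0.88% of all genes were. A link between them and Kit was not tested. The calls of Tal1 and Bcl11a were lost without library 3135 or 3143, and that of Kit at 65 Gy and 6 weeks without 3136, 3138 or 3140. In place of 5 of the 62 genes, 3 were called at 75 Gy and 6 weeks without 3135 or 3143 and 8 without 3136 or 3141, and in place of 1 at 75 Gy and 2 weeks, 4 were called without 3126 or 3132.

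Of the 13 red cell enzymes and maturation genes, 2 were called higher at 75 Gy and 6 weeks, where 7.28% of all genes were. They were Blvrb, which reduces biliverdin, and Pklr, the red cell and liver pyruvate kinase, at 1.06 and 1.93 (edgeR adjusted p = 9.36e-06 and 0.00922). They were also called at 65 Gy and 6 weeks, by 1.0 and 1.74 (adjusted p = 7.27e-05 and 0.047), but the call of Pklr was lost when any 1 of the 5 libraries was left out, and that of Blvrb without 3136 or 3138. Of 10 other globin genes, 6 were tested and 0 called in any comparison by edgeR. At 75 Gy and 6 weeks 2 had an unadjusted p under 0.05, as did 45.6% of all genes. Mb, the myoglobin of muscle, had the smallest p there, at 1.37 (adjusted p = 0.0843). The embryonic genes Hbb-bh1 and Hba-x were at 0 reads in 15 and 16 of the 17 libraries, and the embryonic Hbb-y did not exceed 0.227 CPM.

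Some genes listed for the clearance of hemoglobin and heme rose after irradiation, and release of these from red cells was not tested. Of 16 such genes, 3 were called higher at 75 Gy and 2 weeks, 4 at 75 Gy and 6 weeks, and 2 at 65 Gy at each time, and 0 were called lower. Higher calls made up 5.67% and 7.28% of all genes at 75 Gy and 3.47% and 4.34% at 65 Gy, at 2 and 6 weeks. Hmox1, the heme oxygenase that opens the heme ring, was read at 28.1 to 35.6 CPM in the controls at 2 weeks and at 86.3 to 217 CPM after 75 Gy, a log2 fold change of 2.16 (edgeR adjusted p = 3.55e-05). At 6 weeks it was at 29.2 to 30.6 CPM in the controls and at 60.6 to 81.1 CPM after 75 Gy, a log2 fold change of 1.22 (adjusted p = 0.00111). Ftl1, the ferritin light chain, rose at both doses and times, by 1.06 to 1.39.

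Within the 75 Gy group at 2 weeks, Hmox1 was highest in library 3134, where the globins were lowest, and lowest in 3132, where they were highest. These libraries also differed in endothelial genes. The log2 fold change of Ednrb was -1.77 without 3132 and -1.01 without 3134, and that of Plvap -1.48 and -0.83. Not every gene had this order, since Kit was lowest without 3133, at -1.62. A link between Hmox1 and the globins was not tested. Hp (haptoglobin), which binds free hemoglobin, was at 0.19 at 75 Gy and 6 weeks (edgeR adjusted p = 0.252), and Hpx (hemopexin), which binds free heme, at 0.82 (adjusted p = 0.028). Cd163, the macrophage receptor for the complex of haptoglobin and hemoglobin, was at -0.96 (adjusted p = 0.00379) at 75 Gy and 6 weeks. Neither Hpx nor Cd163 reached the size required.

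**Figure D5:**
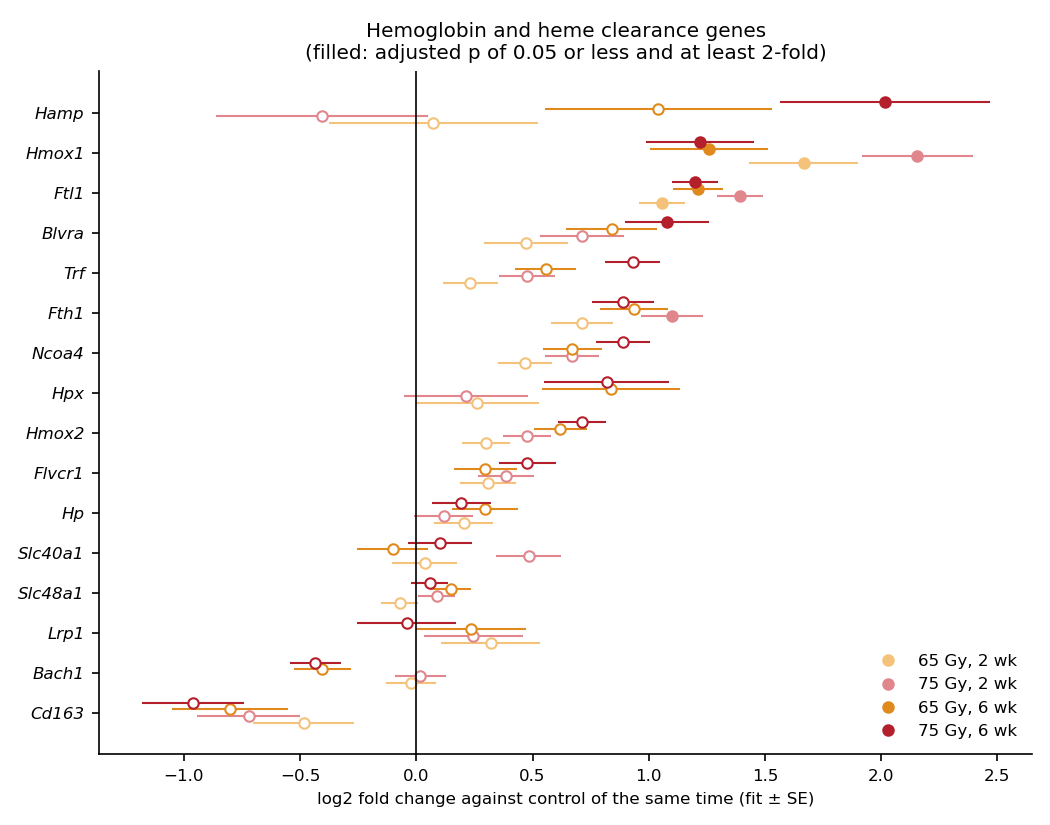
Log2 fold change of the 16 genes of hemoglobin and heme clearance against the controls of the same time, with points for the edgeR fit and bars for its standard error, filled where the gene was called. Hmox1 and Ftl1 are filled to the right of 0 at both doses and both times, and no gene is filled to the left.

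Genes of other cells moved in the same libraries, and their part in the values of the 7 genes was not tested. Of 14 megakaryocyte and platelet genes, whose mRNA also travels in blood, 10 were called lower at 75 Gy and 6 weeks and 6 at 65 Gy and 6 weeks, where 3.13% and 0.943% of all genes were, among them Tubb1 (log2 fold changes -1.91 and -1.70). At 2 weeks 0 of the 14 were called by edgeR, with 7 at 75 Gy and 2 at 65 Gy at an unadjusted p under 0.05, where 35% and 25.4% of all genes were. Without library 3138, which leaves 1 library at 65 Gy whose spread is taken from the other groups, 0 of these 6 calls were kept and their log2 fold changes were -1.42 for Tubb1 to -0.77 for Itga2b. The 14 megakaryocyte and platelet genes summed to 124 to 161 CPM in the controls at 6 weeks, 76.2 to 84.9 CPM after 75 Gy and 67.5 to 92.7 CPM after 65 Gy. In the controls at 2 weeks they summed to 82.5 to 151 CPM, so the controls differed between the times as well. The median log2 fold change of the 14 genes in the controls, 6 weeks against 2 weeks, was 0.86. Of these genes 0 were called there by edgeR, where 0.576% of all genes were. Of 12 endothelial genes, 8 were called lower at 75 Gy and 6 weeks and 5 at 75 Gy and 2 weeks, where 3.13% and 2.07% of all genes were, with summed levels of 2160 to 2629 CPM at 6 weeks against 5840 to 5887 CPM in the controls. Without library 3134, 2 of the 5 calls at 75 Gy and 2 weeks were kept.

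Control libraries 3126 and 3135 stood apart by genes of immature blood cells. Ngp, a granule protein of immature neutrophils, was read at 21.1 CPM in 3126 and 41.3 CPM in 3135, against 1.73 to 6.16 CPM in the other 4 controls, and Mpo, myeloperoxidase, at 2.50 and 5.22 CPM. The summed level of the 16 immature neutrophil genes was 778 CPM in 3126 and 691 CPM in 3135, 384 to 537 CPM in the other 4 controls, and 773 to 1222 CPM in the irradiated libraries. Over the 15 of these genes tested, however, the median log2 fold change against the controls was negative in the irradiated groups. It was -1.78 at both doses at 2 weeks, and -0.86 at 75 Gy and -1.12 at 65 Gy at 6 weeks. Lcn2 was called higher at both doses and times, and Cd177 in all but 65 Gy at 2 weeks. S100a8, S100a9 and Retnlg were called lower at both doses at 2 weeks, and Ngp and Camp at 75 Gy and 6 weeks. Erythroblast genes were high in libraries 3126 and 3135, with Klf1 at 0.731 and 0.697 CPM against at most 0.368 CPM elsewhere. At each time Slc4a1 and Epb42 were highest among the controls in these libraries, and so were Hbb-bs and Hbb-bt, by smaller margins. Without both libraries the log2 fold change at 75 Gy and 6 weeks was -1.10 for Slc4a1 and 1.50 for Epb42. For each gene 4 alternatives other than leaving out 1 library were tried. Epb42 passed both limits of a call in 1 of the 4 at 75 Gy at each time, and in 1 at 65 Gy and 6 weeks. Slc4a1 passed them in 3 of the 4 at 75 Gy and 6 weeks.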

How the data were processed

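Read counts per gene were deposited for 17 lung libraries. Per the labels and the study's methods, the authors sequenced poly-A-selected stranded libraries in read pairs, trimmed and aligned the reads to GRCm38.p6 with HISAT2 and counted them per gene with StringTie, and the table holds these counts without normalization. Groups were taken from the labels. Counts were fitted in edgeR 4.0.16 (R 4.3.3; filterByExpr with minimum count 10 and total 15, 22052 of 45777 genes kept; TMM; quasi-likelihood test) with all 6 groups in 1 fit, and the p-values were adjusted over all genes kept. Levels are CPM, or log2 CPM with a prior count of 2 for correlations. The 7 genes had 16 to 162007 reads per library, with Slc4a1 and Epb42 the least precise. The genes and all lists were chosen with earlier results of these data known. Genes other than the 7 were named by rule: those called, at most 3 per list and comparison by smallest p, or else the 1 with the smallest p, a few defining genes, and the 5 most alike in pattern. Some of the genes so named are not reported here. Alternatives were other tools (DESeq2 1.42.0, the exact test), size factors, no filter, only the groups compared, and each library left out. The fit was tested on simulated data.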

Additional observations from a re-analysis of the deposited data

Results flagged for a closer look

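Gp1bb encodes a subunit of the platelet receptor for von Willebrand factor. The globin and erythroid genes described first, and the list genes called in some comparison, were checked for opposite shifts between the times. List genes never called were not checked. Among the genes checked, only for Gp1bb did every irradiated library lie above its control mean at 2 weeks and below it at 6 weeks. This held at both doses, which share their control libraries. The log2 fold change at 6 weeks less that at 2 weeks was -1.96 at 75 Gy and -1.98 at 65 Gy. The test of this difference in edgeR was not passed at either dose (adjusted p = 0.103 and 0.320). Gp1bb was read at 0.610 to 1.44 CPM in the controls, 1.28 to 2.1 CPM at 65 Gy and 1.13 to 1.82 CPM at 75 Gy at 2 weeks. At 6 weeks it was at 1.85 to 2.51 CPM in the controls, 0.888 to 1.07 CPM at 65 Gy and 0.619 to 1.23 CPM at 75 Gy. The controls thus differed between the times as well. Gp1bb overlaps a neighbouring gene on the same strand, so its reads may be shared.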

How the results depend on the processing

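No paired analysis was possible because no number in the labels recurs across groups. No called value changed sign in any alternative. The count of companion erythroid genes called at 65 Gy and 6 weeks was 1 without the filter against 3, and between the controls 0 when only the groups compared were fitted, against 1. With single libraries left out, the companion counts ran from 1 to 4 (4 without 3126 or 3132, 3 without 3133, 2 without 3127) at 75 Gy and 2 weeks, 3 to 8 at 75 Gy and 6 weeks, 1 to 2 (2 without 3126) at 65 Gy and 2 weeks and 0 to 2 (0 without 3138, 1 without 3136 or 3140) at 65 Gy and 6 weeks, and were 0 to 0 between the controls. The median log2 fold change of Alas2, Slc4a1 and Epb42 ran from -0.57 (without 3132) to 0.91 (without 3126) at 75 Gy and 2 weeks, from -0.57 to 0.40 between the doses at 2 weeks, from -1.16 to -0.57 between the doses at 6 weeks, from -0.92 (without 3138) to 1.09 (without 3135) at 65 Gy and 6 weeks, from -0.13 to 0.66 at 65 Gy and 2 weeks, from -1.71 to -1.11 at 75 Gy and 6 weeks and from -1.41 (without 3135) to 0.71 (without 3126) between the controls. The log2 ratio of the globin sum ran from -0.79 (without 3132) to 0.32 (without 3134) at 75 Gy and 2 weeks, -0.97 to -0.66 at 75 Gy and 6 weeks and -0.66 to -0.16 at 65 Gy and 6 weeks. Leaving out libraries 3126 and 3135 together, chosen after seeing the data, gave companion counts of 4 at 75 Gy and 2 weeks, 3 at 75 Gy and 6 weeks, 2 at 65 Gy and 2 weeks and 0 between the controls, and a median of 1.11 for Alas2, Slc4a1 and Epb42 at 65 Gy and 6 weeks against -0.60. Apart from the samples left out, the cause was not tested. With 2 or 3 libraries a group and as few as 16 reads for a gene, Slc4a1 and Epb42 are limited by 1 library and by depth.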
